A study of Mus musculus with 8 samples.

Results

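The miR-200 family is a group of 5 related miRNAs in mouse, and 4 of them are described here: mmu-miR-429-3p, mmu-miR-200b-3p and mmu-miR-200a-3p from chromosome 4 and mmu-miR-200c-3p from chromosome 6. They were chosen by name, with earlier results of these data known, and they are 4 of the 422 miRNAs counted in the hippocampus. The fifth, miR-141-3p, and the 5p strands of these hairpins were not analysed here. The hippocampus of single adult male mice, 12 weeks old, was taken for small RNA sequencing. The groups are 4 mice of BTBR T+ Itpr3tf/J (BTBR), an inbred strain used as a model of idiopathic autism, and 4 mice of C57BL/6J (B6), the control strain. The strains differ at many loci, and the effects of single alleles cannot be told apart here. Each library was made from tissue punched out of brain slices of a single mouse.

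miR-200 miRNAs are best known from epithelial cells, where they are abundant and repress the transcription factors Zeb1 and Zeb2. Zeb1 and Zeb2 in turn repress transcription of the miR-200 genes, and this mutual repression separates epithelial from mesenchymal cell states. In the nervous system the family is known from the olfactory epithelium and from neural progenitors, where it acts on neurogenesis. A miRNA selects its targets mainly through its seed, bases 2 to 8 from the 5′ end, so members with the same seed are predicted to bind the same sites.

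The mature sequences are shown because the seed splits the family differently from the genome. They are RefSeq entries on GRCm38.p6, 5′ to 3′, with the seed in capitals.
miR-200b-3p: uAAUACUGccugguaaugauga
miR-429-3p: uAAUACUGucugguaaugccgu
miR-200c-3p: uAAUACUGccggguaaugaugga
miR-200a-3p: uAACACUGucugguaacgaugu
miR-200b-3p, miR-429-3p and miR-200c-3p share the seed AAUACUG, which pairs with CAGUAUU in a target. miR-200a-3p has the seed AACACUG, which pairs with CAGUGUU. The seeds differ by a single base, given as U4C from miR-200b-3p to miR-200a-3p with positions counted from the 5′ end. RefSeq sequences were found for 367 of the 422 miRNAs, and among these only the 4 members carry either seed. The closest pair is miR-200b-3p and miR-200c-3p, which differ over their first 22 bases at 2 positions, U11G and A22G, and how the counting split reads between them was not tested. The other pairs differ at 4 or 5 positions, so that each member has its own sequence outside the seed.

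By position, miR-200b-3p, miR-200a-3p and miR-429-3p form a cluster on the minus strand of chromosome 4. Their hairpins lie in this order of transcription at chr4:156055681-156055750, chr4:156054896-156054985 and chr4:156053905-156053987 (GRCm38), together over 1846 bp. All 3 hairpins lie in an intron of the protein-coding gene Ttll10 in the GENCODE M21 annotation and also within the noncoding transcript Gm13648, in its introns for miR-200b and miR-200a and overlapping an exon for miR-429. miR-200c-3p comes from a hairpin on the minus strand of chromosome 6, at chr6:124718322-124718390, in an intron of the antisense RNA gene Gm15884. miR-200c-3p therefore shares its seed with 2 of the members on chromosome 4 and its locus with none of the other 3.

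The libraries held 2247482 to 7904990 miRNA reads, with BTBR replicate 2 the shallowest and BTBR replicate 4 the deepest. Levels are CPM, the counts scaled to a common library size with TMM factors, and 1 read was worth 0.120 to 0.449 CPM. The miR-200 family was rare in all of them. Its 4 members together took 107 to 230 reads in the B6 libraries and 261 to 1437 reads in the BTBR libraries, which is 0.00210% to 0.00397% and 0.0116% to 0.0210% of the miRNA reads. The 5 neuronal miRNAs listed as a check of the tissue (miR-124-3p, miR-128-3p, miR-9-5p, miR-132-3p and miR-137-3p) summed to 51108 to 79430 CPM in B6 and 60234 to 72546 CPM in BTBR, and none of them differed past the threshold.

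All 4 members had higher mean levels in BTBR than in B6, and 2 of them, miR-200c-3p and miR-200a-3p, passed the test. Their log2 fold changes were among the 10 largest of the 422 miRNAs, with a median of 2.39 against 0.02 over all miRNAs. An adjusted p under 0.1 was reached by 2 of the 4, both with a higher level in BTBR, against 1.18% of all miRNAs that passed in this direction and 1.66% in either. A log2 fold change above 0 was seen in 4 of 4, against 50.9% of all miRNAs, and one above 1 in 4 of 4, against 5.21% of all miRNAs, and an unadjusted p under 0.05 with a higher level in BTBR in 4 of 4, against 7.35%. Every BTBR library lay above every B6 library for 2 of the 4, against 3.32% of all miRNAs. The quasi-likelihood test of edgeR was used, with p-values adjusted after Benjamini-Hochberg over the 422 miRNAs and a threshold of 0.1. The p-values weigh the difference between strains against the spread between mice of a strain, which the test estimates with information shared across miRNAs. Hippocampus is a mixture of cells, and in such bulk RNA more cells of a type and more RNA per cell cannot be told apart.

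**Figure D1:**
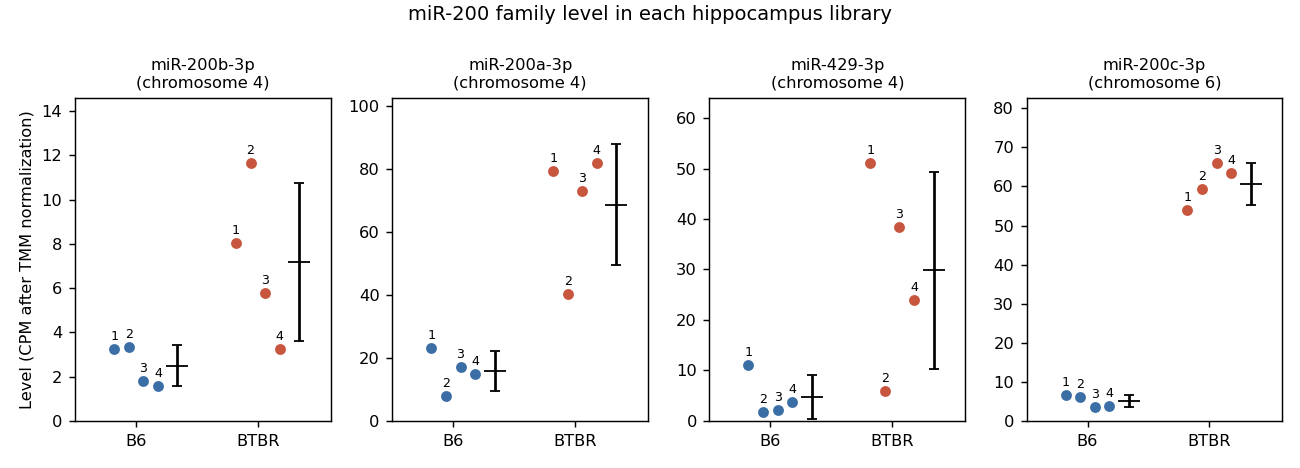
Level of each member (CPM, linear axes from 0) in the 4 B6 and 4 BTBR libraries, with points numbered by replicate and the mean ± SD beside them. miR-200c-3p and miR-200a-3p show no overlap between strains, whereas BTBR replicate 2 for miR-429-3p and BTBR replicate 4 for miR-200b-3p fall within the B6 range.

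miR-200c-3p, the member on chromosome 6, showed the largest difference of the 4 and the smallest p of all 422 miRNAs. Its level was 6.52, 6.19, 3.63 and 3.82 CPM in B6 replicates 1 to 4 and 53.9, 59.3, 66.1 and 63.5 CPM in BTBR replicates 1 to 4. The BTBR mice were close to each other, with an SD of 8.84% of the mean against 30.3% in B6, and the strains were far from overlapping. The mean rose from 5.04 ± 1.53 CPM in B6 to 60.7 ± 5.36 CPM in BTBR (SD, n = 4), a log2 fold change of 3.58 (95% interval 2.93 to 4.23, adjusted p = 2.91e-05, edgeR's quasi-likelihood test). Ranked by level within each library, miR-200c-3p moved from places 335 to 373 of 422 in B6 to places 187 to 198 in BTBR. The B6 levels rest on 17 to 37 reads and the BTBR levels on 132 to 528. With any single mouse left out the log2 fold change stayed between 3.41 and 3.72.

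Of the chromosome 4 cluster, miR-200a-3p had the highest mean level and was the only member past the threshold. Its level was 23.2, 8.03, 17.2 and 14.8 CPM in B6 replicates 1 to 4 and 79.3, 40.4, 73.1 and 82.2 CPM in BTBR replicates 1 to 4. The lowest BTBR mouse, replicate 2, was still above the highest B6 mouse, replicate 1. The mean rose from 15.8 ± 6.28 to 68.8 ± 19.3 CPM (SD, n = 4), a log2 fold change of 2.12 (95% interval 1.35 to 2.90, adjusted p = 0.0161, edgeR's quasi-likelihood test). The adjusted p ranged up to 0.0866, without BTBR replicate 4, when a single mouse was left out.

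miR-429-3p, at the downstream end of the cluster, varied most between mice of a strain. It had 11.1, 1.84, 2.22 and 3.82 CPM in B6 replicates 1 to 4 and 51.2, 5.84, 38.3 and 23.9 CPM in BTBR replicates 1 to 4. BTBR replicate 2, with 13 reads, was the only BTBR mouse below B6 replicate 1, the highest B6 mouse. The counting intervals of these 2 levels overlapped (8.45 to 14.4 and 3.11 to 9.98 CPM, 95% Poisson, counting error only). The means were 4.75 ± 4.34 CPM in B6 and 29.8 ± 19.5 CPM in BTBR, and the log2 fold change of 2.66 (95% interval 1.16 to 4.15) did not pass the threshold (adjusted p = 0.123, edgeR's quasi-likelihood test). It passed without B6 replicate 1 (log2 fold change 3.46, adjusted p = 0.0177, same test) and without BTBR replicate 2 (2.97, adjusted p = 0.0383, same test), and without any other single mouse it did not.

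miR-200b-3p, at the upstream end of the cluster, was the rarest member by mean level in both strains. It had 3.26, 3.35, 1.82 and 1.57 CPM in B6 replicates 1 to 4 and 8.02, 11.7, 5.76 and 3.25 CPM in BTBR replicates 1 to 4. BTBR replicate 4 lay among the B6 mice although it was the deepest library, and the other BTBR mice lay above all B6 mice. The means were 2.50 ± 0.935 and 7.17 ± 3.58 CPM (SD, n = 4), with a log2 fold change of 1.46 (95% interval 0.36 to 2.57) that did not pass the threshold (adjusted p = 0.254, edgeR's quasi-likelihood test). Each level rests on 7 to 39 reads, and with 7 reads the counting interval alone runs from 0.632 to 3.24 CPM.

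**Figure D2:**
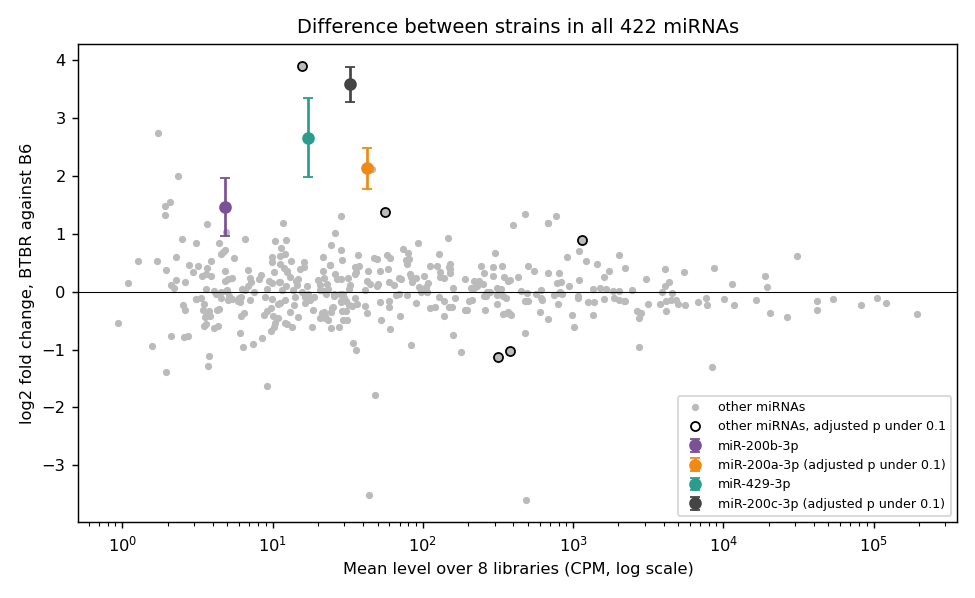
log2 fold change of BTBR against B6 over the mean level in the 8 libraries (CPM, log axis) for all 422 miRNAs, with the members in colour and bars of 1 standard error. The members lie between 1.46 and 3.58 at low mean levels of 4.84 to 42.3 CPM, and most other miRNAs lie near 0.

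The members were also tested singly, with no model across miRNAs, on log2(CPM + 0.5). For miR-200c-3p, with a difference of 3.5, and miR-200a-3p, with 2.13, the two-sided exact permutation test gave p = 0.0286, the smallest that the 70 assignments of 4 mice against 4 allow. For miR-429-3p the difference was 2.48 with p = 0.0571, and for miR-200b-3p it was 1.28 with p = 0.0857 (same exact permutation test). With 5 in place of 0.5 added to the CPM, the differences were 2.72 for miR-200c-3p, 1.83 for miR-200a-3p, 1.69 for miR-429-3p and 0.66 for miR-200b-3p, and each p was the same.

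By locus, chromosome 4 gave most of the members' reads in every library except BTBR replicate 2. The cluster there supplied 85.2%, 68.1%, 85.4% and 84.1% of the members' reads in B6 replicates 1 to 4 and 72.0%, 49.4%, 63.9% and 63.3% in BTBR replicates 1 to 4. B6 replicate 2, where the cluster was at its lowest, lay below BTBR replicate 1, so the strains overlapped in this share. Its 95% Wilson interval, 59.2% to 75.9% of 116 reads, included the share of BTBR replicate 1. The summed level of the cluster was 23.1 ± 10.3 CPM in B6 and 106 ± 34.2 CPM in BTBR (SD, n = 4), 4.59 times as high. For the miR-200c-3p locus the ratio of means was 12. These sums over chosen members are descriptions and carry no test.

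By seed, the 3 members with the seed AAUACUG together came to 20.9, 11.4, 7.67 and 9.21 CPM in B6 replicates 1 to 4 and to 113, 76.8, 110 and 90.7 CPM in BTBR replicates 1 to 4. The lowest BTBR sum was well above the highest B6 sum, and the ratio of means was 7.95. For the seed AACACUG, carried by miR-200a-3p among the members, the ratio of means was 4.35. miR-141-3p has this seed and lies beside miR-200c on chromosome 6, so the sums and shares by seed and by locus cover the 4 members and not the whole family. The share of miR-200a-3p among the members' reads was 52.6%, 41.4%, 69.1% and 61.7% in B6 and 41.2%, 34.5%, 39.9% and 47.5% in BTBR. B6 replicate 2 again lay within the BTBR range, and the other B6 mice were above all BTBR mice.

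**Figure D3:**
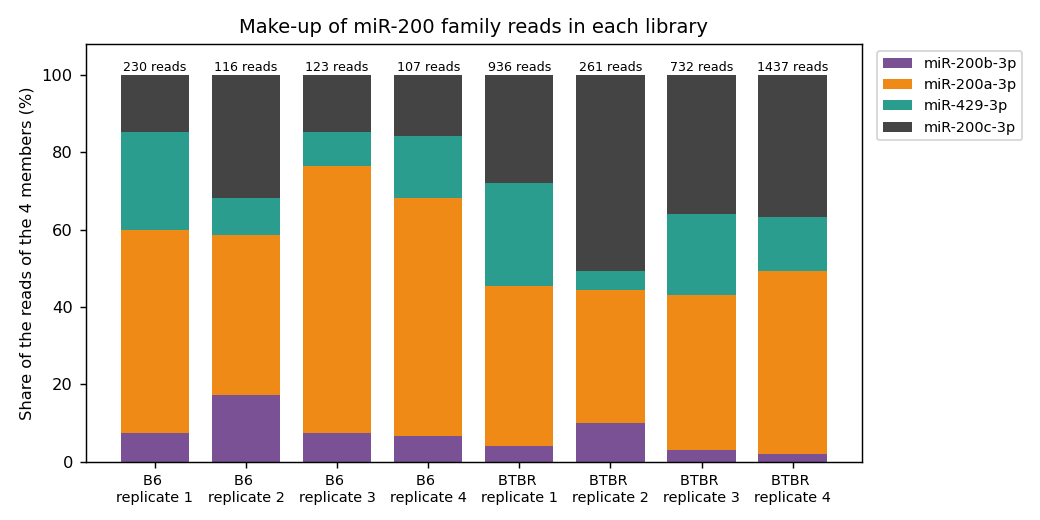
Share of each member in the reads of the 4 members (%, stacked to 100) for each library, with the number of reads above each bar. The miR-200c-3p part takes 14.6% to 31.9% in B6 and 28.0% to 50.6% in BTBR, and replicate 2 holds the largest miR-200c-3p and miR-200b-3p parts in each strain.

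Ratios of 2 counts within a library do not depend on depth or on the normalization, and they show whether members differed between the strains by different factors. The 6 pairs were compared by two-sided exact permutation tests of the log2 ratio, adjusted by Benjamini-Hochberg over the 6 pairs. With p = 0.0286 as the smallest exact permutation value, no single pair could pass the threshold on its own, and none of the 6 passed.

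Within the chromosome 4 cluster, no ratio separated the strains. miR-200a-3p exceeded miR-200b-3p by 7.12, 2.40, 9.44 and 9.43 times in B6 replicates 1 to 4 and by 9.90, 3.46, 12.7 and 25.3 times in BTBR replicates 1 to 4. The log2 ratio differed by 0.71 (standard error 0.76, p = 0.343, adjusted p = 0.411, exact permutation test). BTBR replicate 4, with 683 reads of miR-200a-3p and 27 of miR-200b-3p, had the highest ratio, and replicate 2 had the lowest in each strain. The difference was 0.25 without B6 replicate 2 and 0.28 without BTBR replicate 4, and was 1.24 without BTBR replicate 2.

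The ratio of miR-200a-3p to miR-429-3p was 2.09, 4.36, 7.73 and 3.88 in B6 replicates 1 to 4 and 1.55, 6.92, 1.91 and 3.43 in BTBR replicates 1 to 4. Both strains spread over a similar range, and the log2 ratio in BTBR minus that in B6 was −0.49 (standard error 0.62, p = 0.429, adjusted p = 0.429, exact permutation test). It was −0.18 without B6 replicate 3, −0.19 without BTBR replicate 1, −0.29 without BTBR replicate 3, −0.81 without B6 replicate 1 and −0.91 without BTBR replicate 2. The ratio of miR-429-3p to miR-200b-3p, the ends of the cluster, was 3.41, 0.55, 1.22 and 2.43 in B6 and 6.38, 0.50, 6.65 and 7.37 in BTBR. BTBR replicate 2 stood apart here, below every B6 mouse, while the other BTBR mice were above every B6 mouse. The log2 ratio differed by 1.2 (standard error 1.11, p = 0.314, adjusted p = 0.411, exact permutation test), without BTBR replicate 2 by 2.14 and without B6 replicate 2 by 0.71. In each of these 3 pairs the standard error is about as large as the difference or larger, so equal factors of change are not shown either.

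Between the loci, the count ratio of miR-200c-3p over miR-200b-3p differed most, although these members share a seed. It was 2.0, 1.85, 2.0 and 2.43 in B6 replicates 1 to 4 and 6.72, 5.08, 11.5 and 19.6 in BTBR replicates 1 to 4. The B6 ratios lay close together, and every BTBR ratio was above them. They rest on 7 to 20 reads of miR-200b-3p in B6. The counting intervals of B6 replicates 3 and 4 ran from 0.917 to 4.36 and from 1.03 to 5.70 (95% Wilson). These are wider than the spread of the B6 ratios, so a stable ratio in B6 is not shown. The geometric mean was 2.06 in B6 and 9.35 in BTBR, a log2 difference of 2.18 (standard error 0.44, p = 0.0286, adjusted p = 0.171, exact permutation test). These are the 2 members with the fewest differences in sequence, and neither difference lies in the seed.

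The count ratio of miR-200c-3p over miR-200a-3p was 0.281, 0.771, 0.212 and 0.258 in B6 replicates 1 to 4 and 0.679, 1.47, 0.904 and 0.773 in BTBR replicates 1 to 4. B6 replicate 2 was the only B6 mouse in the BTBR range. The log2 ratio differed by 1.47 (standard error 0.48, p = 0.0571, adjusted p = 0.171, exact permutation test). Without B6 replicate 2 the difference was 1.88 and its adjusted p 0.0857, and that of miR-200c-3p over miR-200b-3p was 2.13 with the same adjusted p (exact permutation tests, 3 mice against 4). For miR-200c-3p to miR-429-3p the ratios were 0.586 to 3.36 in B6 and 1.05 to 10.2 in BTBR and overlapped widely (log2 difference 0.98, standard error 0.88, p = 0.343, adjusted p = 0.411, exact permutation test). Without BTBR replicate 2 this difference was 0.33, and without B6 replicate 1 it was 0.58.

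**Figure D4:**
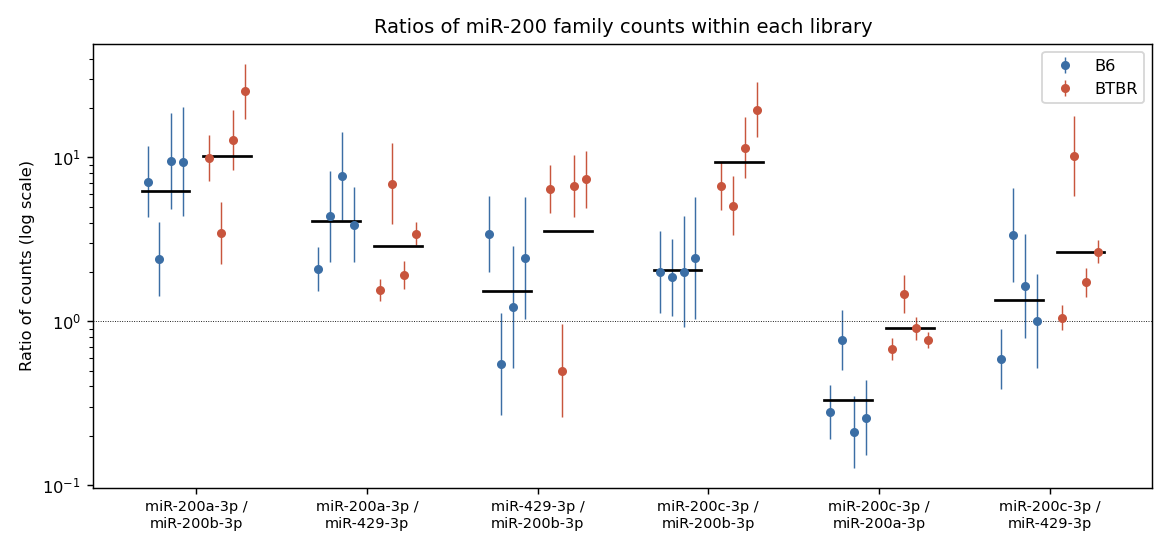
Ratio of the counts of 2 members within each library (log axis) for the 6 pairs, with 95% Wilson counting intervals as bars and the geometric mean of each strain as a black line. The strains lie apart for miR-200c-3p over miR-200b-3p, at 1.85 to 2.43 in B6 and 5.08 to 19.6 in BTBR, and overlap in the other 5 pairs.

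By mean level, the order of the members was the same in both strains, with miR-200a-3p first, then miR-200c-3p, miR-429-3p and miR-200b-3p. The mature forms are 22 or 23 bases long, so no correction for length was made. Levels here are reads counted, and whether the kit captured each sequence equally well was not tested. In B6, miR-200c-3p and miR-429-3p did not differ beyond their spread, since their ratio lay at or on both sides of 1. In BTBR the same held for miR-200a-3p and miR-200c-3p, with miR-200c-3p the more abundant in BTBR replicate 2 alone. miR-429-3p and miR-200b-3p were not apart in either strain, with miR-200b-3p the more abundant in replicate 2 of each.

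Among mice of the same strain, miR-200a-3p and miR-429-3p varied together, and in 3 of the other 5 pairs the sign of the correlation changed when a single mouse was left out. With the strain means taken off the log2 levels, miR-200a-3p and miR-429-3p had a Pearson's r of 0.82 over the 8 libraries, and miR-200b-3p had −0.48 with miR-200a-3p and −0.22 with miR-429-3p. miR-200c-3p had 0.36 with miR-200b-3p, 0.23 with miR-429-3p and −0.08 with miR-200a-3p. These values describe 8 libraries that share depth and normalization and include counting error, which is large for miR-200b-3p. In BTBR replicate 2, miR-429-3p lay 1.90 and miR-200a-3p 0.71 below the BTBR mean on the log2 scale while miR-200b-3p lay 0.79 above it. Without this mouse r was 0.46 for miR-200b-3p with miR-429-3p and −0.17 for miR-200b-3p with miR-200a-3p, and it was 0.69 for miR-200a-3p with miR-429-3p. r was −0.18 for miR-200c-3p with miR-429-3p without B6 replicate 1, and for miR-200c-3p with miR-200a-3p it was −0.61 without B6 replicate 1, 0.45 without B6 replicate 2 and 0.03 without B6 replicate 3. These values without a mouse were chosen after the data were seen.

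**Figure D5:**
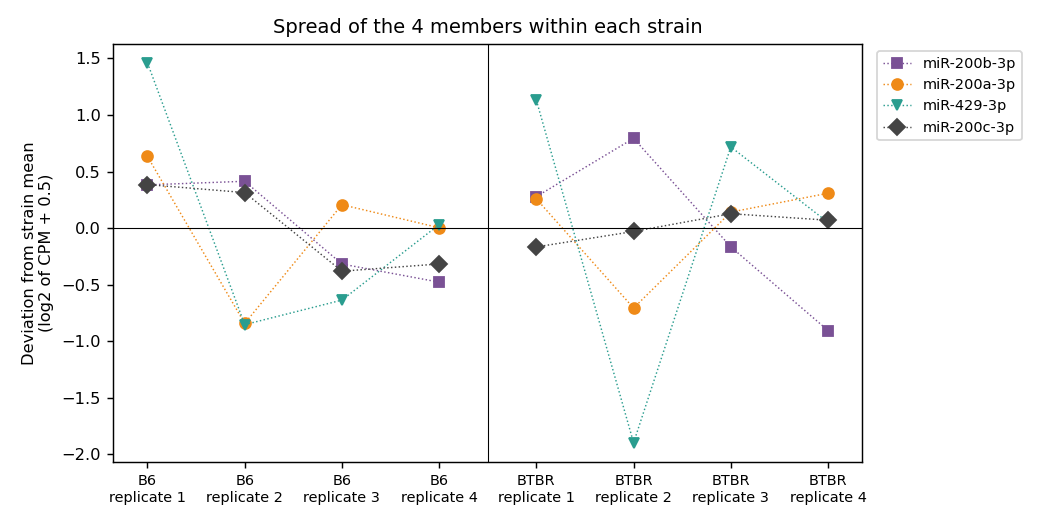
Deviation of each member from the mean of its own strain (log2 of CPM + 0.5) in each library, with dotted lines joining libraries of a strain only to guide the eye, since replicates have no order. miR-200a-3p and miR-429-3p are both low in replicate 2 of each strain, where miR-200b-3p is above its mean, and miR-200c-3p stays within 0.17 of its mean in BTBR.

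Other miRNAs were compared with the mean profile of the 4 members by Pearson's r over the 8 libraries. Including the difference between strains, the most alike were miR-411-3p (r = 0.92), miR-383-5p (0.89), miR-1224-5p (0.86), miR-451a (0.83) and miR-182-5p (0.82), of which miR-383-5p and miR-451a passed the threshold. Within strains the most alike were miR-143-3p (0.92), miR-34c-5p (0.90), miR-1298-3p (0.88), miR-449b (0.88) and miR-1298-5p (0.87), and none of these 5 passed. Apart from miR-143-3p, these are miRNAs of the choroid plexus or of ciliated cells, and B6 replicate 1 held the highest sum of either list. With single members, the r of these 5 within strains ran from −0.03 (miR-143-3p with miR-200b-3p) to 0.88 (miR-1298-3p with miR-200c-3p). Both sets were picked as the highest r with the mean profile, so likeness to each member is not shown.

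Levels of miRNAs known from other cell types are given here beside the members. Of an epithelial list (miR-203-3p, miR-31-5p, miR-375-3p, miR-192-5p and miR-194-5p, 5 of 7 listed), 0 passed the threshold in either direction, with a median log2 fold change of 0.02. The list summed to 1928 to 3029 CPM in B6 and 2064 to 2844 CPM in BTBR, so the strains overlapped. Most of this sum was miR-192-5p, with a mean of 2007 CPM in B6 and 2031 CPM in BTBR. Without B6 replicate 1, a comparison chosen after the values were seen, the median log2 fold change of the list was −0.09 and 0 passed. miR-203-3p, which marks stratified epithelium, averaged 26.5 ± 5.58 CPM in B6 against 30.9 ± 8.15 CPM in BTBR (SD, n = 4), and the log2 fold change, 0.22 ± 0.29 (standard error), did not pass (adjusted p = 0.809, edgeR's quasi-likelihood test).

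Of the choroid plexus list (7 of 11 listed) and the ciliated cell list (6 of 7), 0 passed the threshold. Choroid plexus miRNAs summed to 4282 to 30913 CPM in B6, highest in replicate 1, and to 2893 to 7878 CPM in BTBR, and their median log2 fold change was −1.30, with 1 of 7 above 0. Ciliated cell miRNAs summed to 1006 to 9865 CPM in B6 and 1837 to 2568 CPM in BTBR, with a median of −0.85 and 0 of 6 above 0. B6 replicate 1 carried much of these medians, but not all of the high B6 sums. The sums of the other B6 mice were 4282 to 13159 CPM for the choroid plexus list. For the ciliated cell list they were 1006 to 3535 CPM. The highest of each was still above every BTBR sum. Without it the choroid plexus median was −0.59, with 3 of 7 fold changes above 0, and the ciliated cell median was −0.11, with 2 of 6 above 0, a comparison chosen after the values were seen. The members' log2 fold changes without this mouse were 3.66 for miR-200c-3p and 2.31 for miR-200a-3p, and the part of either list in them was not tested.

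Red blood cell miRNAs, 6 in the table, had 5 distinct measurements, because miR-486a-5p and miR-486b-5p have identical counts in all 8 libraries and count once here. All 5 had a log2 fold change above 0, with a median of 1.19, and the erythroid miR-451a passed (1.38, adjusted p = 0.0339, edgeR's quasi-likelihood test). They summed to 307 to 855 CPM in B6 and 541 to 1376 CPM in BTBR, highest in BTBR replicate 2. Of the sensory organ cluster, 2 of 3 miRNAs were measured and both had a log2 fold change above 0, with a sum of 7.41 to 52.0 CPM in B6 and 32.7 to 190 CPM in BTBR. Without B6 replicate 1, which held the highest B6 sum, the other B6 sums were 7.41 to 8.88 CPM. miR-183-5p passed (log2 fold change 3.90, standard error 0.85, adjusted p = 0.0569, edgeR's quasi-likelihood test), and miR-182-5p, at 2.11, did not (adjusted p = 0.254, same test), though both did without B6 replicate 1, at 4.82 for miR-183-5p (adjusted p = 0.0121) and 3.28 for miR-182-5p (adjusted p = 0.00929, same test). The part of both lists in the members' difference was not tested.

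Of 5 other miRNAs tied by textbook knowledge to Zeb1 and Zeb2, as repressors of them or as genes they repress, 3 were measured. Of these, miR-183-5p rose, while miR-34a-5p (log2 fold change 1.34, standard error 0.45, adjusted p = 0.254) and miR-203-3p did not pass in edgeR's quasi-likelihood test. miR-34a-5p is also the nearest measured miRNA to the chromosome 4 cluster, 5986 kb away. Its mean level was 270.0 ± 216 CPM in B6 against 682 ± 178 CPM in BTBR (SD, n = 4). The nearest to miR-200c-3p is miR-7231-5p, at 1887 kb, with 0.926 ± 0.503 and 2.95 ± 3.47 CPM, which did not pass either (adjusted p = 0.596, edgeR's quasi-likelihood test).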

How the data were processed

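Hippocampal small RNA of 4 B6 and 4 BTBR mice was sequenced with the TruSeq Small RNA kit, 1 library per mouse. Reads were checked with FastQC 0.11.2 and mapped to GRCm38 by sRNAbench with Bowtie, and the authors deposited whole-number counts of reads lying within miRBase annotations, without normalization. Every miRNA of the table has at least 1 read in each library. Counts of 8 miRNAs, in 4 sets, are identical in every library, so the same reads stand in more than 1 row; none is a member. No molecular identifiers were used, so that Poisson and Wilson intervals cover counting error only.

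Groups and replicate numbers came from the labels. Counts of all 422 miRNAs were normalized by TMM and tested with edgeR 4.0.16 (limma 3.58.1, DESeq2 1.42.0, R 4.3.3) at an adjusted p of 0.1, with standard errors derived from the F statistics. Ratios, exact permutation tests and plots were made in Python 3.11.15 with SciPy 1.17.1 and matplotlib 3.10.9. On simulated counts for BTBR against B6 (422 miRNAs), 96 of 100 miRNAs changed 4-fold and 63 of 100 changed 2-fold were called, as were 6 of 222 unchanged.

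The members, lists and tests were chosen with earlier results of these data known. Named are the 4 members, the 5 other miRNAs most like them over all libraries and the 5 within strains, and members of the lists where a result turns on them. miR-7231-5p was named for its position after its values were seen. Same-numbered mice did not deviate together (r between −0.15 and 0.05), so the number was not used as a block. Coordinates and host genes are from GENCODE M21, and sequences from RefSeq.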

Additional observations from a re-analysis of the deposited data

Results flagged for a closer look

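The log2 ratio of miR-429-3p to miR-200b-3p counts in BTBR replicate 2 was −1.0, a count ratio of 0.50, and lay far from the other 3 BTBR mice, at ratios of 6.38 to 7.37. The gap to the nearest mouse was 0.947 of the range of the strain, above Dixon's 95% critical value for 4 samples. It rests on 13 and 26 reads in the shallowest library, and its 95% Wilson interval of 0.260 to 0.962 did not reach the other BTBR ratios. Across 20 such groups of 4 libraries chance flags about 1.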

How the results depend on the processing

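miR-200c-3p and miR-200a-3p passed in all 19 alternatives, with log2 fold changes of 3.41 to 3.72 and 1.93 to 2.33. miR-429-3p passed in 6 of 19. It passed in edgeR's exact test (2.65, adjusted p = 0.0139) and the DESeq2 Wald test (2.66, adjusted p = 0.00186). In the quasi-likelihood test it passed with upper-quartile factors (2.71, adjusted p = 0.0716) and with the replicate block (2.65, adjusted p = 0.0761). It also passed there without B6 replicate 1 or BTBR replicate 2 (range without a mouse 2.27 to 3.46, adjusted p 0.0177 to 0.278). miR-200b-3p passed in 1 of 18, the DESeq2 Wald test (1.47, adjusted p = 0.0980, range 0.0980 to 0.555), and with a minimum of 50 counts in 4 libraries it was not tested. The Wald test called all 4 members. The number of miRNAs past the threshold was 7, but 16 with edgeR's exact test, 21 with DESeq2, 4 with library size only, 4 at a threshold of 0.05, 3 with the replicate block, and 3 (without BTBR replicate 3 or 4) to 13 (without B6 replicate 2) with a mouse left out, including 4 without BTBR replicate 1. The cause was not tested. With the block 3 of the 4 members passed, but mice share only a number between strains, and of the 4 B6 libraries only replicate 1 correlated best with its own number. Leaving out a mouse gave log2 ratio differences of 1.83 to 2.48 for miR-200c-3p to miR-200b-3p 1.24 to 1.88 for miR-200c-3p to miR-200a-3p, 0.33 to 1.42 for miR-200c-3p to miR-429-3p, 0.25 to 1.24 for miR-200a-3p to miR-200b-3p, −0.91 to −0.18 for miR-200a-3p to miR-429-3p and 0.71 to 2.14 for miR-429-3p to miR-200b-3p. No member's or ratio's difference changed sign. Levels of 7 to 39 reads limit miR-200b-3p.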
